A study of Arabidopsis thaliana with 12 samples.

Results

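Transcripts of 5 nuclear genes for small subunits and assembly factors of photosystem II were followed in wild-type Arabidopsis thaliana of ecotype Columbia 0. The genes were PSBW, PSBY, PSB27, LPA19 and AT1G54500 (RBD1), and they were picked by name. Each was measured by 1 probe that names no other gene, so 5 of the 692 probes of a single gene, and of 3439 probes in all, are described. The samples under high light (1000 µE for 1 h) numbered 6, and those from plants grown in normal light (80 µE, titled 0 h) also numbered 6. Total RNA of each sample was measured on an expression array. The labels give no tissue or plant age, and they do not say that the samples are of different plants or cultures. The p-values therefore set the difference between the groups against the scatter of these 12 arrays within groups. Part or all of that scatter may be technical. A control left in normal light until 1 h is not among the samples, so the light and the passing of time cannot be told apart.

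Photosystem II is the thylakoid complex that oxidises water, and its reaction centre protein D1 is damaged by strong light and replaced in a repair cycle. Most of the small subunits sit in the membrane around the reaction centre, whereas assembly factors bind only to intermediates that are being built or repaired. PsbW stabilises the supercomplexes of photosystem II with its antenna, and PsbY is a small membrane protein cut from a precursor with several transmembrane segments. Psb27 and LPA19 are related proteins of the thylakoid lumen, of which LPA19 takes part in the processing of the D1 precursor, and RBD1 is a membrane-bound rubredoxin, an iron protein needed for the accumulation of photosystem II.

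The deposited values are linear intensities in an arbitrary unit with a ceiling of 100. Their median per array was 0.338 to 0.357 in high light, against 0.115 to 0.130 in normal light. Exact zeros numbered 167 to 209 per array in high light, against 396 to 470 in normal light, and 0 to 2 probes in high light against 6 to 8 in normal light stood at the ceiling. Within a group, log2 values of samples 1 and 2, 3 and 4, and 5 and 6 correlated at 0.713 on average across probes and those of the other pairs at 0.613. These values were quantile-normalised, as described below, with zeros set to the smallest value above 0, so the correlations depend also on the zeros. No label tells if samples of neighbouring numbers are repeat measurements. None of the 5 genes was at 0 or at the ceiling in any of the 12 samples. Because the arrays had no common median, log2 changes are given after quantile normalisation, which gives all arrays the same set of values and so follows the rank of a probe. They are high light minus normal light. The median of all probes still shifted, by 0.16 after quantile normalisation and by 1.47 as deposited. Zeros move this median, and over the 2233 probes above 0 in every sample it was -0.23 and 1.04 on these scales.

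After 1 h of high light, PSBW and PSB27 rose and PSBY, LPA19 and RBD1 fell in quantile-normalised values, which follow rank. The changes were 0.66 to 1.15 in size on the log2 scale (limma, adjusted p under 0.05). For RBD1 this fall turned into a change of 0.20 as deposited. For PSBW the rise turned into -0.49 with arrays scaled to a common median (limma adjusted p = 0.01) and -0.16 with a common 75th percentile. PSB27 was not called with a common median (0.18, limma adjusted p = 0.41), nor LPA19 as deposited (-0.20, limma adjusted p = 0.38). After quantile normalisation the same limma test called 37.8% of all probes, 15.8% higher and 22.0% lower, and calls were thus frequent across the whole array. With neighbouring samples averaged, 3 against 3, all 5 genes were still called in the same direction (limma adjusted p = 0.018 to 0.037). That fit called 759 of all 3439 probes, 330 higher and 429 lower. On the deposited scale 2 of the 5 genes were called higher, 1 lower and 2 in neither direction, where 49.4% of all probes were called higher and 5.64% lower.

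**Figure D1:**
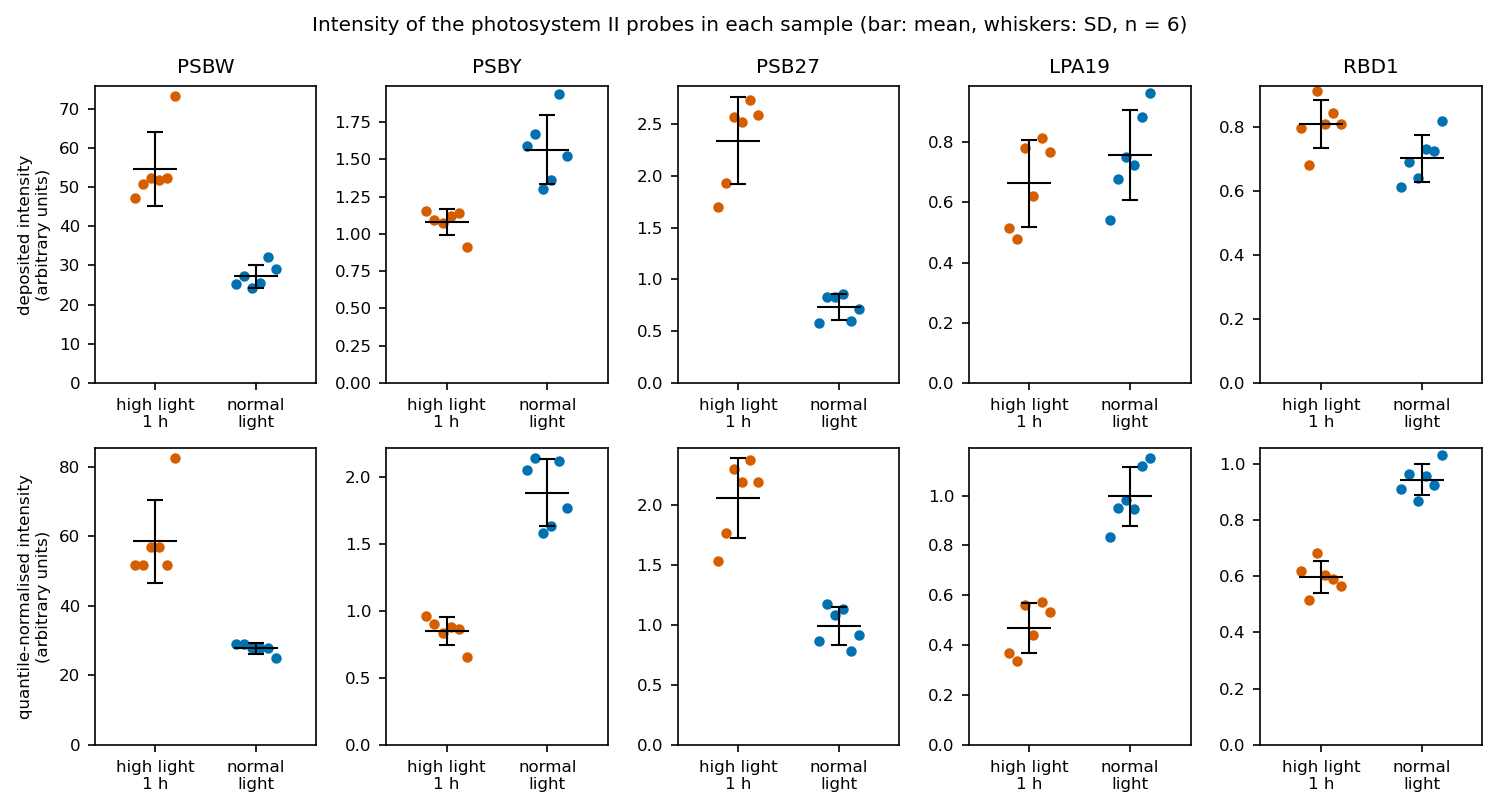
Intensity of each photosystem II gene in every sample, in arbitrary units, as deposited (upper row) and after quantile normalisation (lower row), with high light 1 h left of normal light. Points are samples, and bars and whiskers are the mean and SD (n = 6). The groups are apart for PSBW, PSBY and PSB27 in both rows, and for LPA19 and RBD1 in the lower row alone.

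Of the structural subunits, PSBW had a probe among the brightest of every array. Its deposited intensity had a lowest value of 47.1, a median of 51.9 and a highest of 73.3 in high light, against 24.2, 26.3 and 32.1 in normal light. Every high light sample lay above every normal light sample, and sample 6 of high light stood above the other 5, which reached at most 52.3. The deposited mean was 54.6 ± 9.36 in high light and 27.2 ± 2.96 in normal light (SD, n = 6), a ratio of 2.01. After quantile normalisation PSBW changed by 1.06 on the log2 scale (SE 0.128, limma adjusted p = 7.8e-05), and without sample 6 of high light by 0.94.

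PSBW held ranks 5 to 10 of its array in high light, against ranks 16 to 19 in normal light, counting the brightest probe as 1. Among probes of a single gene it ranked 1 to 3 in high light and 2 to 4 in normal light, so there the groups overlapped. Its share of the summed signal of the array was 1.53% ± 0.24 in high light and 0.897% ± 0.0856 in normal light (SD, n = 6). The 6 to 8 probes at the ceiling in normal light have only a lower bound there, and the effect of the ceiling on these shares was not tested. With the 9 probes that reached the ceiling in any sample left out, PSBW still changed by 0.93 (limma adjusted p = 3.5e-05).

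In units of the median probe of its own array, PSBW stood at 136 to 205 times that median in high light, against 188 to 249 times in normal light. The groups overlap on this measure, and the mean is lower in high light. On the deposited scale the rise of PSBW, 1.00 (SE 0.135), was 0.48 below the median change of all probes and 0.05 below that of the probes above 0 in every sample. The direction of PSBW thus depends on the scaling. Ranks within an array cannot change when it is multiplied by a factor, so the brighter rank is no test of the scaling.

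PSBY, the other structural subunit measured, fell. Its lowest, median and highest deposited intensities were 0.915, 1.1 and 1.15 in high light, against 1.3, 1.55 and 1.94 in normal light. The groups did not overlap, and sample 6 of high light was again the one apart, below the other 5 at 1.07 to 1.15. Means were 1.08 ± 0.0871 in high light and 1.56 ± 0.231 in normal light (SD, n = 6).

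PSBY changed by -1.15 after quantile normalisation (SE 0.128, limma adjusted p = 4.6e-05). It was lower and called under each of 5 scalings, from -0.52 as deposited (adjusted p = 0.0049) to -2.01 with a common median (adjusted p = 3.8e-07). Of the 5 genes it was the only one called in the same direction under all 5. Its rank was 474 to 699 in high light, against 209 to 283 in normal light. As deposited, 3.98% of all probes were lower in every high light sample than in any normal light sample, as PSBY was. Under limma the probes called lower were 22.0% of all after quantile normalisation, 18.4% with cyclic loess, 20.6% with a common 75th percentile and 26.5% with a common median.

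Of the assembly factors, PSB27 was the one that rose, and as deposited it had the largest change of the 5 genes. Psb27 binds to photosystem II intermediates on the lumenal side before the oxygen-evolving cluster is built. Deposited intensities had a lowest value of 1.7, a median of 2.54 and a highest of 2.73 in high light, against 0.575, 0.772 and 0.864 in normal light. As deposited, 44.0% of all probes were higher in every high light sample than in any normal light sample, as PSBW and PSB27 were. The lowest high light value of PSB27 was well above the highest normal light value, and the 2 lowest of high light were samples 1 and 2. The means were 2.34 ± 0.418 in high light and 0.735 ± 0.125 in normal light (SD, n = 6), a ratio of 3.18.

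On the log2 scale PSB27 changed by 1.05 after quantile normalisation (SE 0.151, limma adjusted p = 0.00025) and by 1.67 as deposited (SE 0.169, adjusted p = 1.6e-05). It was higher under each of the 5 scalings but was not called with a common median, where the change was 0.18 (95% interval -0.20 to 0.55, limma adjusted p = 0.41). Probes called higher made up 11.4% of all with a common median, 16.5% with a common 75th percentile and 15.9% with cyclic loess. As deposited, 45.8% of all probes had a change at least as high, and after quantile normalisation 33.0%. Its rank was 191 to 292 in high light and 387 to 584 in normal light, again without overlap.

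LPA19, the relative of PSB27, did not follow it. The lowest, median and highest deposited intensities were 0.479, 0.695 and 0.816 in high light, against 0.542, 0.737 and 0.963 in normal light. The groups overlapped over most of their range, and the means were 0.663 ± 0.145 in high light and 0.756 ± 0.15 in normal light (SD, n = 6). The deposited change was -0.20 (95% interval -0.62 to 0.23, limma adjusted p = 0.38), which did not pass the test.

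LPA19 lost rank in high light. It stood at ranks 808 to 1308 in high light, against 395 to 549 in normal light, and the groups were apart. After quantile normalisation its change was -1.11 (SE 0.161, limma adjusted p = 0.00026), with intensities of 0.338 to 0.572 in high light and 0.832 to 1.15 in normal light. It was lower under all 5 scalings and called under 4 of them.

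RBD1 also had deposited intensities that overlapped between the groups. The lowest, median and highest values were 0.681, 0.81 and 0.912 in high light, against 0.611, 0.706 and 0.819 in normal light. High light values lay slightly higher, with means of 0.809 ± 0.0754 in high light and 0.702 ± 0.0737 in normal light (SD, n = 6). The deposited change of 0.20 (95% interval -0.05 to 0.46, limma adjusted p = 0.14) did not pass the test.

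The rank of RBD1 was 673 to 896 in high light and 442 to 525 in normal light. Its normalised intensity was 0.515 to 0.683 in high light, against 0.869 to 1.03 in normal light, with no overlap. The change after quantile normalisation was -0.66 (SE 0.0944, limma adjusted p = 0.00023). It was also lower with cyclic loess (-0.58), a common 75th percentile (-0.95) and a common median (-1.28), and turned upwards only as deposited. RBD1 held 0.0228% ± 0.00207 of the summed signal in high light and 0.0232% ± 0.00207 in normal light (SD, n = 6), a difference smaller than the spread between samples.

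**Figure D2:**
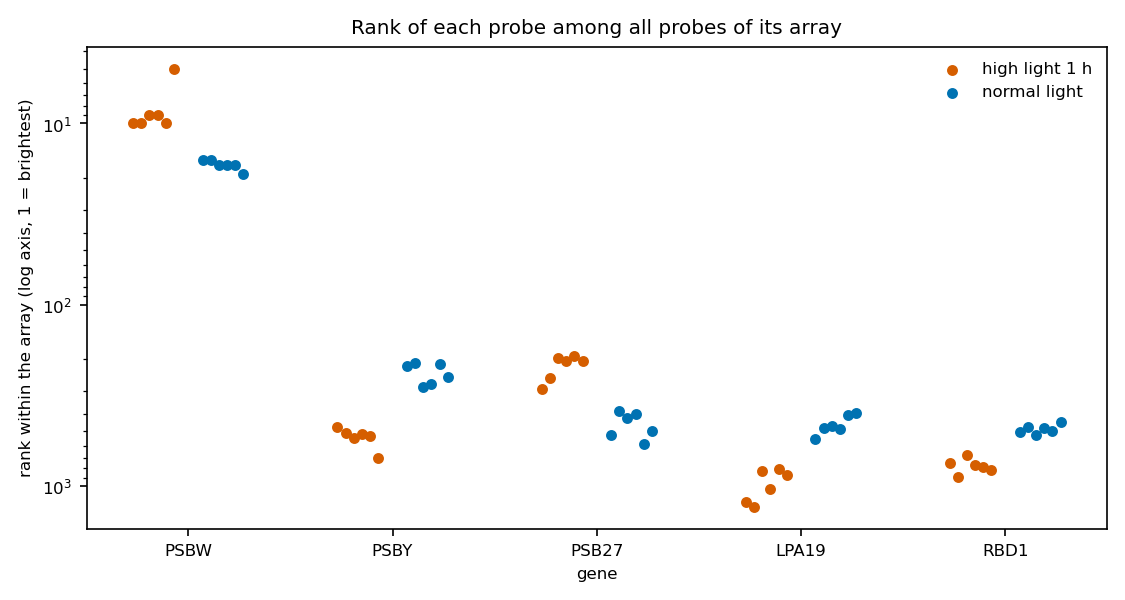
Rank of each photosystem II probe among the 3439 probes of its array, on a log axis with the brightest probe (rank 1) at the top. Points are samples, with high light 1 h left of normal light. PSBW and PSB27 stood at brighter ranks in every high light sample than in any normal light sample, and PSBY, LPA19 and RBD1 at dimmer ones.

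Ranks do not change when an array is multiplied by any factor. By rank, the groups did not overlap for any of the 5 genes, with PSBW and PSB27 brighter and PSBY, LPA19 and RBD1 dimmer in high light. Over all probes 14.4% moved to a brighter rank and 17.4% to a dimmer one without overlap. In normal light the ranges of PSB27, LPA19 and RBD1 shared ranks between 442 and 525, and in high light PSB27 lay at 191 to 292, RBD1 at 673 to 896 and LPA19 at 808 to 1308. The rank of a probe reflects its brightness on the array and does not order the amounts of different transcripts.

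**Figure D3:**
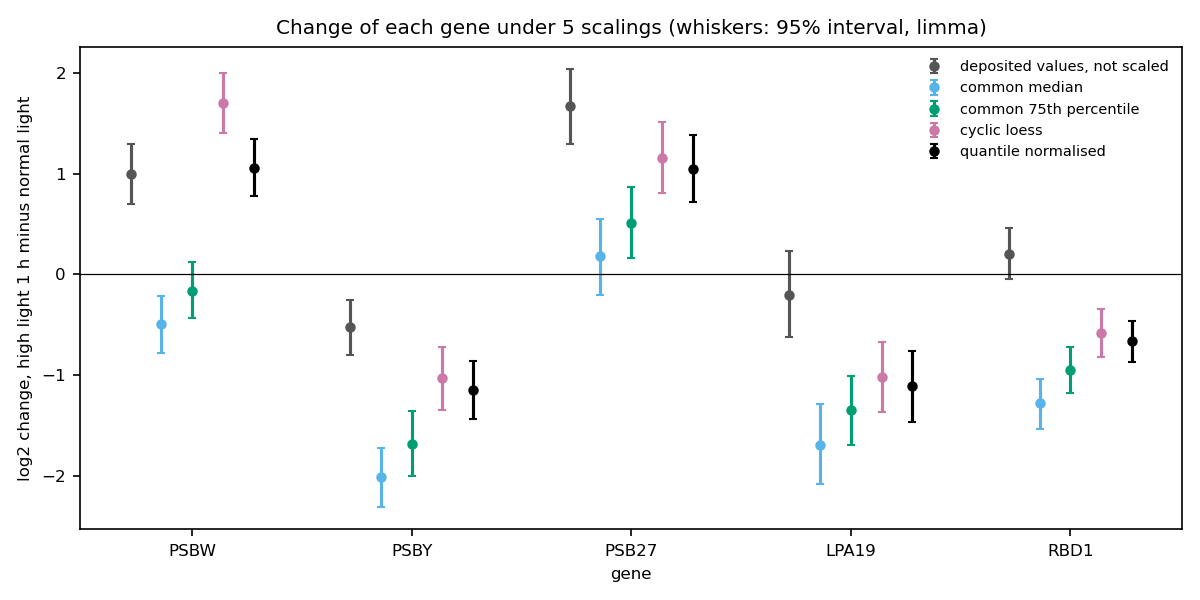
Log2 change of each photosystem II gene, high light 1 h minus normal light, under 5 scalings of the arrays. Points are limma estimates and whiskers 95% intervals. PSBY and LPA19 lay below 0 and PSB27 above 0 under all 5, while PSBW and RBD1 changed side.

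Differences between 2 probes within an array are also free of any factor common to the array. A shift that depends on brightness stays in them, and the arrays did not differ by a factor alone. Their 99th percentile was 10.2 to 10.8 in high light, against 12.8 to 14.7 in normal light, while the median was higher in high light. In deposited log2 intensity, all 10 pairs of the 5 genes were compared between the groups with exact 2-sided permutation tests over the samples, whose smallest possible p is 0.0022. PSB27 minus LPA19 was 1.72 to 2.02 in high light, against -0.56 to 0.29 in normal light. This is a change of 1.86 in their difference (p = 0.0022, exact permutation test), so these related assembly factors changed unequally. Among the high light samples both genes were lowest in samples 1 and 2, and the SD of their difference, 0.14, was smaller than the SD of either gene, 0.28 for PSB27 and 0.33 for LPA19. In normal light it was the other way round. There the SD of the difference, 0.37, was larger than that of either gene, 0.26 for PSB27 and 0.29 for LPA19.

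The membrane subunits also changed unequally. PSBW minus PSBY was 5.36 to 6.32 in high light, against 3.98 to 4.26 in normal light, a change of 1.52 (p = 0.0022, exact permutation test). The largest change of a pair was that of PSB27 minus PSBY, 2.19, with values of 0.57 to 1.5 in high light and -1.70 to -0.65 in normal light. PSB27 minus PSBW changed by 0.67 with no overlap (p = 0.0022, exact permutation test), but by -0.01 after quantile normalisation (exact permutation p = 0.95).

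Among the 3 genes of dimmer rank, RBD1 minus PSBY changed by 0.73 without overlap (exact permutation p = 0.0022), and by 0.48 after quantile normalisation (exact permutation p = 0.0065). RBD1 minus LPA19 changed by 0.40 with overlap (exact permutation p = 0.011). LPA19 minus PSBY was -1.18 to -0.25 in high light and -1.56 to -0.66 in normal light, a change of 0.33 that did not pass the test (exact permutation p = 0.15) and was 0.04 after quantile normalisation (exact permutation p = 0.87). Quantile normalisation widened the changes of PSBW minus RBD1, 0.79 as deposited and 1.72 normalised, and of PSBW minus LPA19, 1.19 as deposited and 2.17 normalised. The groups did not overlap for 8 of the 10 pairs, which share genes and so are not separate results. How often the groups are apart for pairs of other probes on the array was not counted. These p-values are not adjusted for the number of pairs.

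**Figure D4:**
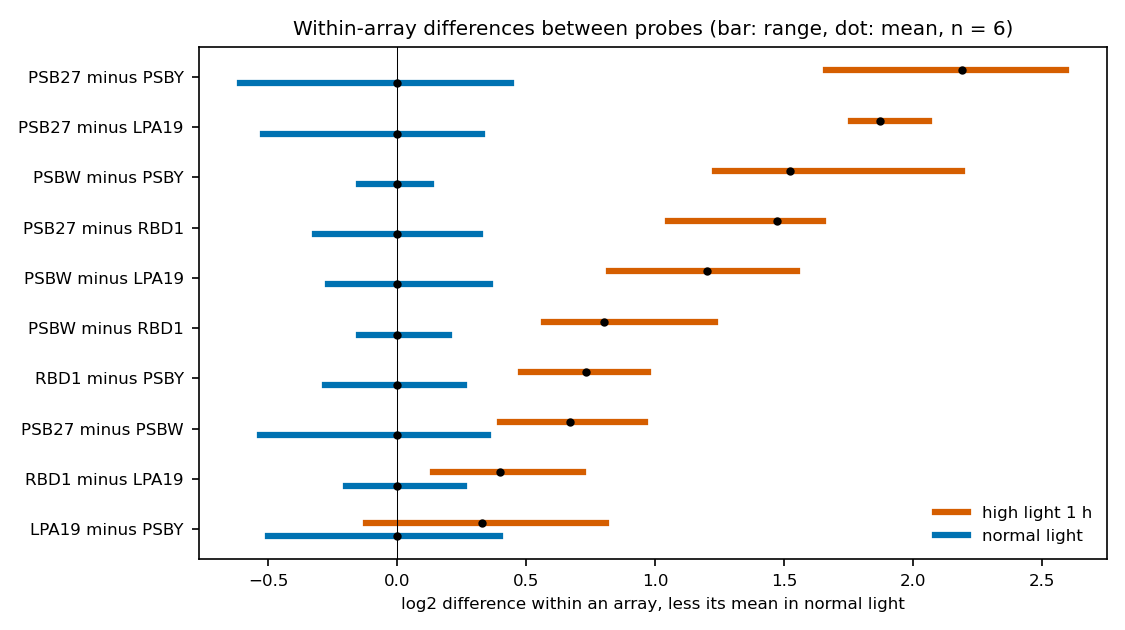
Difference in deposited log2 intensity between 2 probes of the same array, less its mean in normal light, for all 10 pairs of the photosystem II genes. Bars span the 6 samples and dots are means, with high light 1 h above normal light in each row. The bars overlap only for LPA19 minus PSBY and RBD1 minus LPA19.

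Patterns like those of the 5 genes were sought among the 422 probes of a single gene above 0 in all 12 samples. The measure was the root-mean-square difference between quantile-normalised log2 values after each probe's own mean over the 12 samples was taken off. PSBW and PSB27 were each the second nearest probe to the other, at 0.240, where the median over all candidates was 0.830 for PSBW and 0.840 for PSB27. The nearest to PSBW was AT2G15440 at 0.232, and the nearest to PSB27 was AT1G78620 at 0.224, which was next after PSB27 for PSBW, at 0.240. AT3G04210 followed for PSB27 at 0.25. AT1G78620 had a deposited mean of 1.66 ± 0.157 in high light and 0.450 ± 0.109 in normal light (SD, n = 6) and changed by 1.04 after quantile normalisation (limma adjusted p = 9.5e-05).

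The nearest to PSBY were AT3G56290 at 0.192, and UBA1A and AT2G47360, each at 0.196. For LPA19 they were AT1G01730 at 0.236, AT4G05070 at 0.248 and AT4G02800 at 0.251. RBD1 had the smallest differences, AT4G31470 at 0.121, CUTA at 0.133 and AT4G39690 at 0.140. Its median over all candidates was also the smallest, 0.634, against 0.739 for PSBY and 0.761 for LPA19. CUTA changed by -0.64 after quantile normalisation, near the -0.66 of RBD1, and by -1.01 as deposited, where RBD1 changed by 0.20. A match on the normalised scale is therefore a match of relative change and not of deposited values.

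Other genes of the photosystem II pathway were hardly covered by probes of a single gene. Of 12 listed subunits PSBW and PSBY alone had such a probe, and of 39 listed assembly and repair factors PSB27, LPA19 and RBD1 alone. A further 13 genes of the PsbP family and other lumenal proteins had 1, PPD3 (AT1G76450), a PsbP-domain protein of the lumen. PPD3 fell by 3.61 after quantile normalisation (SE 0.421, limma adjusted p = 6.2e-05), with deposited intensities of 0.0169 to 0.106 in high light and 0.0996 to 0.273 in normal light. As deposited its change was -1.81 (limma adjusted p = 0.005). These deposited values overlap slightly and, in high light, lie below the median of the array.

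For the 3 assembly factors the median change was -0.66. For the 2 subunits it was -0.04, which lies between the rise of PSBW (1.06) and the fall of PSBY (-1.15). For all 692 probes of a single gene it was 0.26, but 270 of these were at 0 in some sample. As deposited these medians were 0.20, 0.24 and 1.66. Over the 2233 probes above 0 in every sample, as the 5 genes were, the median was -0.23 after quantile normalisation and 1.04 as deposited. Lists of photosystem I subunits (13 genes) and of the antenna (20 genes) had 1 probe of their own each, and a list of electron transport and ATP synthase genes (11) had 0. PSAN of photosystem I, at 3.29 ± 0.492 in high light and 4.79 ± 1.31 in normal light, changed by -0.64 (adjusted p = 0.027). LHCB1.5 of the antenna, at 10.5 ± 1.26 in high light and 25.1 ± 8.53 in normal light (SD, n = 6), changed by -0.96 (limma adjusted p = 0.0032). No gene of the lists of root markers and of pollen and flower markers had a probe of its own, so that the tissue could not be checked.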

How the data were processed

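The deposited table holds 1 intensity per probe and sample on a linear scale. The steps by which the authors made it from the scans (background, scaling) are not given in the sources used here. The number of arrays limits the precision. Genes were named through the platform annotation and the RefSeq table of assembly TAIR10.1, in which 690 of 692 probes of 1 gene matched. The genes described and the gene lists were chosen with earlier results of these data known.

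Column medians differed by a factor of 3.105, over the limit of 1.1 set for keeping deposited values, so arrays were quantile-normalised. Deposited zeros took the value 9.015e-06, the smallest above 0 in the table, and the log2 values were fitted in R 4.3.3 by limma 3.58.1 (lmFit, eBayes, 2-sided, Benjamini-Hochberg over 3439 probes, threshold 0.05). The code was tested on simulated data. These had no shift of whole arrays between the groups, so they do not test how normalisation deals with the shift seen here. The text names the 5 genes, listed photosystem II genes with a probe of their own, and the 3 probes of nearest pattern for each; PSAN and LHCB1.5 fall outside this rule and were added after their values were seen.

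The main fit did not pair samples by number. High and normal light samples of 1 number had deviations from their group means with weak correlations, -0.0063 to 0.0646. The strongest such correlation fell on the same number for 4 of 12 samples. Weak correlations cannot exclude a shared origin of samples of 1 number, so a pairing remains possible. Alternatives were other scalings, floors and offsets, background, a dim-probe filter, limma settings, averaged or blocked samples, a rank-sum test and each sample left out.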

Additional observations from a re-analysis of the deposited data

Results flagged for a closer look

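In sample 6 of high light PSBW was far from the other 5 samples. Its normalised intensity was 82.5 against 51.8 to 56.8, with a gap to the nearest sample of 0.804 of the whole log2 range, and its deposited intensity was 73.3 against 47.1 to 52.3 (0.765). Sample 6 of normal light was apart for PSBW on the normalised scale alone, at 24.9 against 27.8 to 29.1 (0.704). Normalised values of PSBW move in steps, because each rank has 1 value. PSBY was also apart in sample 6 of high light, on the low side, at a normalised 0.658 against 0.836 to 0.963 (0.629) and a deposited 0.915 against 1.07 to 1.15 (0.687). Over both scales 20 groups of 6 values were examined, chance flags about 1 in 20, and the scales share their data. Without this sample PSBW changed by 0.94 and PSBY by -1.09 after quantile normalisation.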

How the results depend on the processing

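PSBY kept its direction and its call under all 27 alternatives. With a common median PSBW turned to -0.49 (limma adjusted p = 0.01) and PSB27 lost its call (0.18). With a common 75th percentile PSBW stood at -0.16. As deposited LPA19 lost its call (-0.20) and RBD1 turned to 0.20. Scaling to a common median or 75th percentile multiplies each array by a factor. Against the deposited values it thus shifts the log2 changes of all 5 genes alike. For the differences from the quantile-normalised values the cause was not tested. Under the 23 alternatives that were no other scaling, all 5 genes kept direction and call. The largest limma adjusted p, 0.018 to 0.037, came when samples 1 and 2, 3 and 4, and 5 and 6 were averaged. All 23 kept the quantile normalisation, so they do not test the choice of scaling. The floor of 0.05 and the offset of 0.005579 lay below every value of the 5 genes. How many of all probes kept direction and call was not counted. Leaving out 1 sample gave 0.94 to 1.13 for PSBW, -1.20 to -1.09 for PSBY, 0.97 to 1.15 for PSB27, -1.19 to -1.04 for LPA19 and -0.72 to -0.63 for RBD1. PSB27 minus PSBW turned to -0.01 after quantile normalisation, and no other pair lost its call or turned, though 4 moved by over 1.5 times; with samples averaged, 3 against 3 allows no exact p below 0.1, so that no test was made. The total of 1300 called probes fell to 759 with averaged samples (330 higher, 429 lower, against 543 and 757). As deposited 1698 were called higher and 194 lower, and with a common median 391 and 911. A replicate block of the sample numbers gave 1195 calls, and the adjusted p of the 5 genes was 0.0015 for PSBY, 0.0018 for LPA19, 0.0044 for PSBW, 0.0048 for PSB27 and 0.0081 for RBD1. Leaving out the ceiling probes was chosen after the data were seen. Subtracting the 1% background changed nothing, since that quantile was 0.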
